A study of Mus musculus with 20 samples.

Results

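Promoters of mir-17-92 and mir-106b-25, a pair of related microRNA clusters, were examined in mouse sperm DNA. They were chosen by gene symbol, which gave 8 probes of the 22480 in the promoter table: Mir17, Mir18, Mir19a, Mir20a and Mir17hg for mir-17-92 on chromosome 14, and Mir25, Mir93 and Mir106b for mir-106b-25 on chromosome 5. Sperm came from male offspring aged 8 weeks of the strains C57BL/6J and FVB/N, both wild type. Their mothers were given by gavage, from day 9 to 19 of pregnancy, either 300 mg/kg/day of DEHP (bis(2-ethylhexyl)phthalate, a plasticizer) in corn oil or corn oil alone. With 2 strains and 2 treatments there were 4 groups of 5 libraries, 20 in all, called here by strain and by control or DEHP, and the labels do not say which males shared a mother. DEHP and control DNA went to capture and sequencing as separate submissions, and in every comparison of DEHP with control the treatment and the submission cannot be told apart.

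MicroRNAs are short RNAs that pair with messenger RNAs through bases at their 5′ end, the seed, and lower the output of their targets. The mir-17-92 cluster is cut from a long non-coding host transcript, Mir17hg, and is known for promoting proliferation and cell survival. The mir-106b-25 cluster is a paralog of it that lies in an intron of Mcm7, a subunit of the helicase that unwinds DNA at replication. Both clusters are known to be transcribed in the male germ line.

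The microRNAs of both clusters shared seeds, which is why they are shown together. RefSeq (GRCm38.p6) held a mature sequence for 7 of the 8 members, the exception being the host gene Mir17hg. The arm usually taken as the functional one is printed 5′ to 3′, with the seed (bases 2 to 8) in capitals.
miR-17-5p: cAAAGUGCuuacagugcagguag
miR-20a-5p: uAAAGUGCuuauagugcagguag
miR-93-5p: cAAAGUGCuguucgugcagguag
miR-106b-5p: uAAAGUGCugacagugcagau
miR-18a-5p: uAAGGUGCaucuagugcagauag
miR-19a-3p: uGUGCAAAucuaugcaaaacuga
miR-25-3p: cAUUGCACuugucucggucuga
The 7 sequences held 4 seeds. miR-17-5p, miR-20a-5p, miR-93-5p and miR-106b-5p had the seed AAAGUGC, so 2 members of each cluster belonged to this family. miR-18a-5p differed from it by its own seed AAGGUGC, miR-19a-3p had GUGCAAA, and miR-25-3p had AUUGCAC. The last was also the seed of miR-92a-3p of mir-17-92, whose gene Mir92-1 was not analysed here as a promoter of its own, like Mir19b-1.

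The assay was MBD-sequencing, in which sheared DNA is pulled down with a protein domain that binds methylated CpG and the retained fragments are sequenced. Reads over a probe therefore depend on both its methylation and its CpG content, and give no percentage of methylated sites. Every probe was 2200 bp long, from 2000 bp upstream to 200 bp downstream of the start listed for the gene. The deposited values are, for each group, a mean and an SD of the normalized read count. Values per library were not used here, and the table gives no depth. By the study's methods the DEHP libraries had longer reads and on average more read-pairs than the control libraries, and this difference cannot be told apart from treatment. Added up over all promoters, the control means came to 226268 normalized reads for C57BL/6J and 141092 for FVB/N, and the DEHP means to 153283 and 150346. Promoter probes of 11 imprinted genes with an element known to be unmethylated in sperm were also read. Of these, 10 had means of 0.5 to 8.1 normalized reads in all groups, whereas the other, Nnat, had 9.5 to 26.5. The group medians over all promoters were 3 to 5.3, inside that range, so the 10 low probes do not tell sperm from other tissue. Of the 11 probes only that of Snrpn was separated by DEHP, upward in C57BL/6J, from 0.5 ± 0.7 in control to 4 ± 1. Its log2 ratio was 1.74, and 1.36 without separation in FVB/N. Separation means that every library of one group lay above every library of the other, as explained below. Of all promoters, 0.249% were separated upward in C57BL/6J and 1.67% in either direction. The Snrpn probe (chr7:60449978-60452177) held only 15 CG sites. Whether it covers the imprinted element was not tested, so this is no result about the imprint. For 3 imprinted genes with an element known to be methylated in sperm, the H19 probe had 17.5 to 25.3, the Meg3 probe 5.2 to 25.8 and the Rasgrf1 probe 2.4 to 3.7. As promoter probes these need not cover that element, so their values do not check its methylation.

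The 8 probes did not cover 8 separate regions. The 5 probes of mir-17-92 overlapped along chr14:115041671-115044504 (mm10, plus strand), a span of 2834 bp, and shared a core of 1566 bp, or 71.2% of a probe. The 3 probes of mir-106b-25 overlapped along chr5:138165205-138167818 (minus strand), a span of 2614 bp, with a core of 1786 bp (81.2%). A read-pair in a core was counted in every probe of its cluster, so the members are 2 regions read through shifted windows and their values are not independent.

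The clusters differed in the kind of promoter their probes covered. By the GENCODE annotation of GRCm38.p6, Mir17hg starts at base 115042879, and this start lay inside all 5 probes of mir-17-92. The probe named Mir17hg was drawn from another start: its own reference point, base 115044305, is 1426 bp further 3′ and is the first base of the Mir19b-1 hairpin. RefSeq starts Mir17hg at base 115044390, 85 bp from this reference point, which lies inside the Mir17hg probe and outside the other mir-17-92 probes, so the host start class given here rests on GENCODE. The 5′ end of the mir-17-92 span was a CpG island, with 113 of the 146 CG sites of the span in its first 700 bases. The probes of mir-106b-25 held no start of the host. They lay within the gene body of Mcm7, with reference points 6604 to 7018 bp downstream of its start, and together overlapped Mcm7 exons 10 to 13 and introns beside them. The mir-106b-25 span held 53 CG sites, 21 of them in the 394 bp of Mcm7 exon 11.

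**Figure D1:**
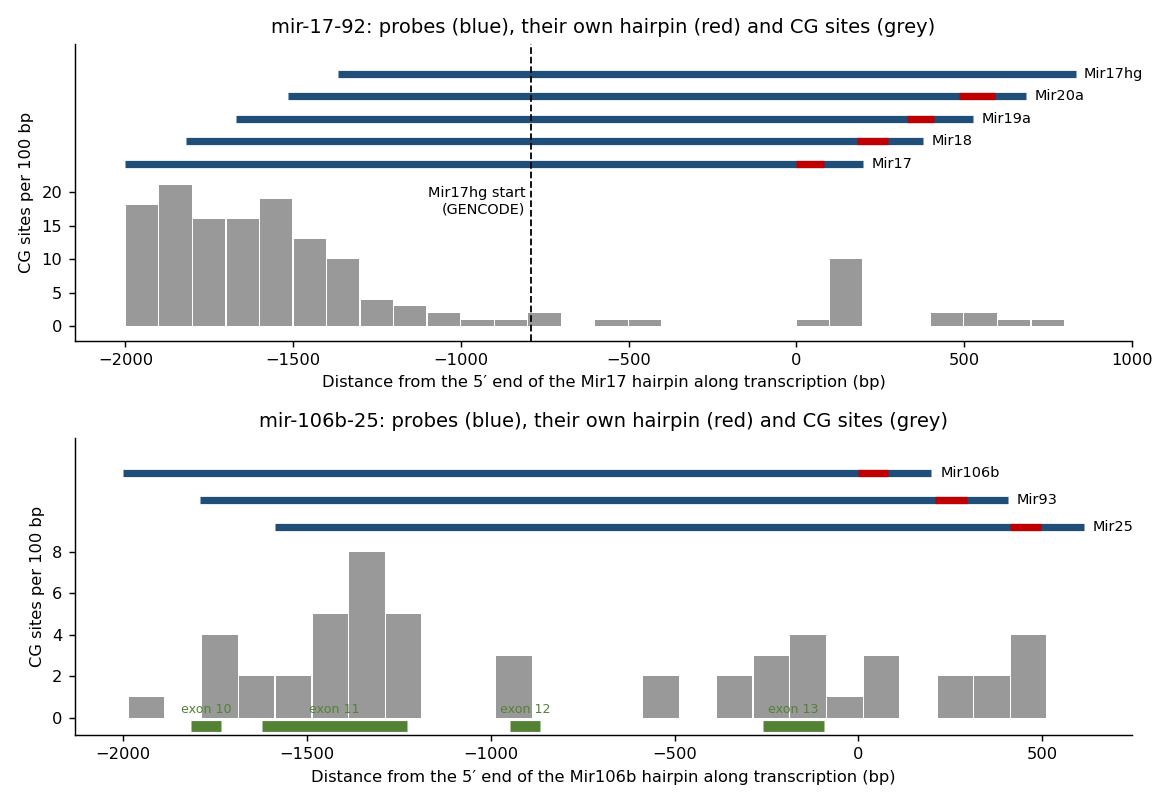
Position of the probes of mir-17-92 (upper panel) and mir-106b-25 (lower panel). The horizontal axis is the distance in bp from the 5′ end of the Mir17 or Mir106b hairpin along transcription, blue bars are probes with their own hairpin in red, grey bars count CG sites in whole bins of 100 bp, the dashed line is the annotated start of Mir17hg and green bars are exons of Mcm7. The probes of mir-17-92 slide off the CpG island from Mir17 to Mir17hg, and those of mir-106b-25 lie over exons of the host.

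Stretches that show this contrast are printed here, each on the plus strand of GRCm38.p6 with every CG in capitals. The first 250 bases of the island (chr14:115041671-115041920, upstream of annotated Mir17hg) held 46 CG sites and only the Mir17 probe covered them whole. The stretch from the Mir17 to the Mir18 hairpin (chr14:115043671-115043946, within exon 2 of Mir17hg) held 11 CG sites, 10 of which stood in the 96 bases between the hairpins. The first 250 bases of Mcm7 exon 11 by coordinate (chr5:138167046-138167295), which all 3 probes of mir-106b-25 covered, held 18.
island: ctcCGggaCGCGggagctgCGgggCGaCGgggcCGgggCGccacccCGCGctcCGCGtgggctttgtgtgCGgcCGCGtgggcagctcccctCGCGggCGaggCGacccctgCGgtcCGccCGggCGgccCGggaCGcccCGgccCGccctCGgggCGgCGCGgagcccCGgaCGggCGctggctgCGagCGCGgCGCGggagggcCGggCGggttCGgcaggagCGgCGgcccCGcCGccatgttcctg
Mir17 to Mir18: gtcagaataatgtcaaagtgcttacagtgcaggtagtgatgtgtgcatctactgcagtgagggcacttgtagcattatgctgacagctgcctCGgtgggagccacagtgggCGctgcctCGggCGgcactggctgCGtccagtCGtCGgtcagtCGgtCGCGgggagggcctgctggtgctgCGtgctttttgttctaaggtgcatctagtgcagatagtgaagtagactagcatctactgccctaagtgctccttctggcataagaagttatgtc
Mcm7 exon 11: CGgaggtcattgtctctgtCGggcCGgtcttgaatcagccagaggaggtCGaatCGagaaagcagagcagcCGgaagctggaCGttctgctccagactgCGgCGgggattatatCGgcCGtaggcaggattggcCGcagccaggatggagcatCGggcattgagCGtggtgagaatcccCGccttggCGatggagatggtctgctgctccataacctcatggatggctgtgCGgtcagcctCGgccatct

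In controls of both strains, captured reads were high at these promoters. Mir25 held 67.2 ± 19.3 normalized reads in C57BL/6J control and 64.1 ± 8.3 in FVB/N control (mean ± SD of the authors, n = 5, as for all values here), and Mir93 held 66.5 ± 18.6 and 64.2 ± 9.8. Only 62 of the other promoters had a higher mean than Mir93 in FVB/N control and 177 in C57BL/6J control. Mir106b followed with 55.4 ± 16 and 55.5 ± 9. The mir-17-92 probes were lower, from 25.9 ± 10.5 (Mir17) to 38.8 ± 9.4 (Mir17hg) in C57BL/6J control and from 23.6 ± 3.7 to 31.7 ± 4.6 in FVB/N control. Even Mir17, the lowest of the 8, exceeded 90.5% of all promoters in C57BL/6J control and 95.5% in FVB/N control. Within each cluster, neighbours in this order lay closer than 1 SD of the libraries in both control groups. Overlapping probes share their libraries, so this SD is not the spread of their difference.

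After DEHP all 8 members had lower means in both strains. Mir17 held 4.4 ± 2.7 normalized reads in C57BL/6J DEHP and 4.1 ± 1.5 in FVB/N DEHP. Its mean was thus 83.0% (C57BL/6J) and 82.6% (FVB/N) below control, and it no longer stood above the middle of the table, with 42.0% and 42.9% of promoters below it. Mir18 held 6.6 ± 3.5 and 5.4 ± 1.7, Mir19a 8.5 ± 4.7 and 8.5 ± 3.5, Mir20a 10.4 ± 5.3 and 10 ± 3.1, and Mir17hg 12.5 ± 5.3 and 12 ± 3.4, in the same order of strains. The mir-106b-25 probes kept a high level: Mir25 held 24.3 ± 10.4 and 25.1 ± 7.2, Mir93 26.5 ± 11.4 and 24.8 ± 6.9, and Mir106b 23.9 ± 8.7 and 23.4 ± 4.9. Mir25 still exceeded 98.8% of promoters in C57BL/6J DEHP and 98.5% in FVB/N DEHP. The means of mir-17-92 were 62.1% to 83.0% below control over both strains, and those of mir-106b-25 56.9% to 63.8%.

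**Figure D2:**
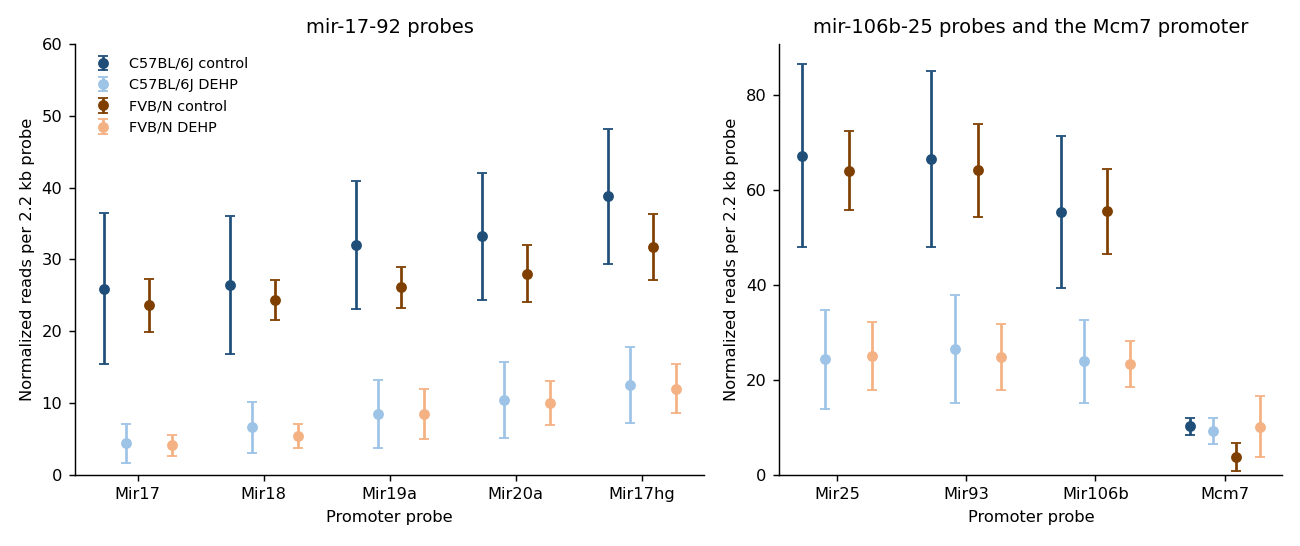
Normalized reads per 2.2 kb probe (vertical axis, linear) for the mir-17-92 probes (left) and the mir-106b-25 probes with the Mcm7 promoter (right). Points are the authors' means and bars their SD over 5 libraries, coloured by group. Both DEHP groups lie below both control groups at every microRNA probe, for example at 4.4 and 4.1 against 25.9 and 23.6 at Mir17, whereas the Mcm7 promoter lies between 3.7 and 10.2.

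Without single libraries, the spread was used as follows. Among 5 values none can lie further than 1.79 SD from their mean, so where the means of a pair of groups, each with 1.79 SD and the rounding step of 0.05 taken off or added, do not overlap, every library of one group lies above every library of the other. For such a promoter the exact two-sided permutation test over the 10 libraries gives p = 0.00794, the smallest value this design allows. The test takes the males as independent, although DEHP was given to the mothers. Whether males shared a mother is not labelled, so this p and its adjusted bound hold only if they did not. The rule gives a lower limit, since groups that it does not separate may still be apart.

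In FVB/N, the DEHP libraries of all 8 members lay under the whole control group, against 0.859% of the 22480 promoters (193) below and 1.63% separated in either direction. Promoters of like CG number and level, described further on, were separated in this direction more often, in 2.80% to 4.39% of cases for the mir-17-92 members and 12.6% to 16.9% for the mir-106b-25 members. The gap was narrowest at Mir20a, where no FVB/N control library could lie under 20.7 normalized reads and no FVB/N DEHP library above 15.7, and in mir-106b-25 at Mir106b, with limits of 39.3 and 32.3. The differences of the means were 3.57 to 6.75 times the larger SD, and the exact permutation p was 0.00794 for each. Adjusted over all promoters by Benjamini-Hochberg, this exact p could only be bounded, at 0.486 or less, because 367 promoters were separated and more may be. The log2 ratios of means (DEHP over control, with 1 added to each mean) were -2.27 for Mir17, -1.98 for Mir18, -1.51 for Mir19a, -1.40 for Mir20a and -1.33 for Mir17hg. For Mir25, Mir93 and Mir106b they were -1.32, -1.34 and -1.21. All 8 passed a 2-fold reduction, which 2.68% of promoters did, and the median of all promoters was 0.35. Only 4 promoters of the table had a lower ratio than Mir17 in this strain.

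In C57BL/6J the ratios were as low but the spread was wider. They ran from -2.32 (Mir17) through -1.85 (Mir18), -1.80 (Mir19a), -1.58 (Mir20a) and -1.56 (Mir17hg) to -1.43 (Mir25), -1.30 (Mir93) and -1.18 (Mir106b), and the median of all promoters was -0.10. All 8 passed a 2-fold reduction, as did 10.7% of promoters, and 8 promoters had a lower ratio than Mir17. With the groups scaled to equal sums over all promoters the ratios were -1.80 to -0.63, and the 5 probes of mir-17-92 passed it while the 3 of mir-106b-25 (-0.88 to -0.63) did not. The difference of the means was 1.97 to 2.80 times the larger SD, and 0 of the 8 members were separated, against 1.42% of promoters below control and 1.67% separated in either direction. Of promoters of like CG number and level, 1.45% to 9.38% were separated below control for the mir-17-92 members and 16.3% to 18.1% for the mir-106b-25 members. A less strict rule, chosen after the data were seen, asks that at least 4 of the 5 control libraries lie above every DEHP library. Mir25 and all 5 mir-17-92 probes met it, 6 of 8 members against 5.07% of promoters. For Mir93 and Mir106b at least 3 control libraries lay above every DEHP library. The share meeting the less strict rule among promoters of like CG number and level is not given, and the probes of a cluster overlap. The SD of the C57BL/6J control group was 24.2% to 40.5% of the mean at the members, and that of the FVB/N control group 11.1% to 16.2%. Promoters with means of 20 to 80 normalized reads had medians of 30.6% and 31.0%. In FVB/N DEHP the mir-106b-25 probes had 20.9% to 28.7% against a median of 20.8%.

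**Figure D3:**
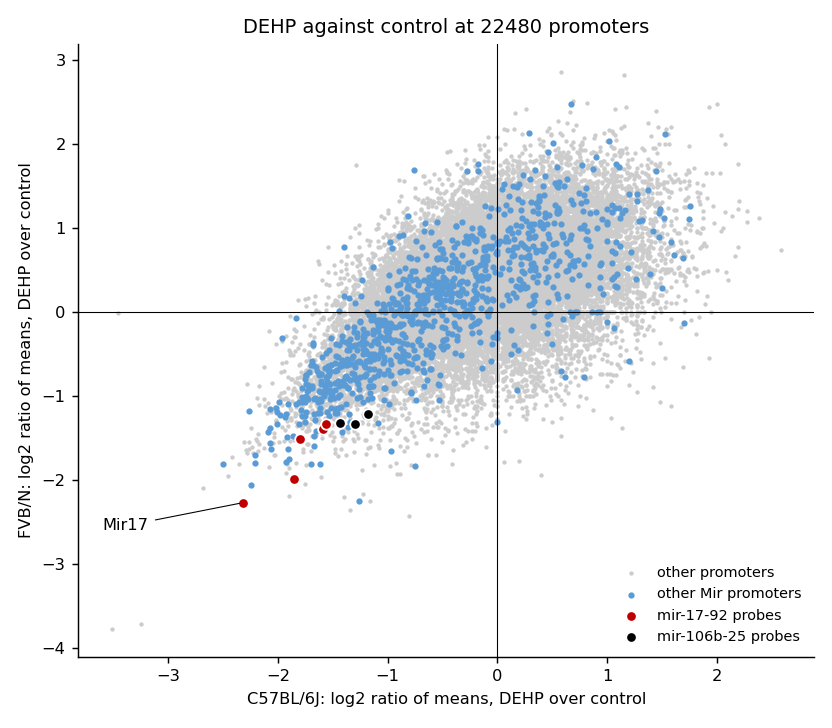
Log2 ratio of means, DEHP over control, in C57BL/6J (horizontal axis) and FVB/N (vertical axis) for all 22480 promoters, each a point. The members lie in the lower left, Mir17 at -2.32 and -2.27 near its edge and the mir-106b-25 probes at -1.43 to -1.18 in C57BL/6J among many other Mir promoters.

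The strains gave log2 ratios of close size at these promoters, and the difference was not tested. The difference of the log2 ratios, C57BL/6J minus FVB/N, was between -0.28 (Mir19a) and 0.13 (Mir18). The spread of a ratio between single libraries had an SD of 0.38 to 1.06, propagated from the SDs of both groups. This is not the error of a ratio of means, which is smaller. Over all promoters the median of the strain difference was -0.50. The cluster medians were -0.19 for mir-17-92 and 0.03 for mir-106b-25, and became 0.26 to 0.67 when the groups were scaled to equal sums or medians over all promoters or the trend on CG sites was removed.

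Strain alone separated none of the members. In controls, 0 of 8 were separated, against 1.06% of promoters with C57BL/6J above and 0.0267% with C57BL/6J below FVB/N. The log2 ratios of C57BL/6J over FVB/N ran from -0.003 (Mir106b) to 0.28 (Mir19a), and all promoters had a median of 0.54, while the cluster medians (0.24 and 0.05) turned below 0 with either scaling or without the trend on CG sites. After DEHP, 0 of 8 were separated as well (0.307% above and 0.0311% below), with ratios of -0.04 (Mir25) to 0.25 (Mir18) and a median of 0.04 for all promoters. These comparisons share their groups with those of DEHP and control. The probes held 5 variants between the strains in mir-17-92 and 3 in mir-106b-25.

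Along mir-17-92 the level ran opposite to the number of CG sites. From Mir17 to Mir17hg the probe loses 106 CG sites of the island and gains 7, and its count goes from 139 through 105, 80 and 56 to 40. The mean nevertheless went up at every step in all 4 groups, in total by 12.9 normalized reads in C57BL/6J control, 8.1 in C57BL/6J DEHP, 8.1 in FVB/N control and 7.9 in FVB/N DEHP. Per CG site, Mir17 held 0.186 normalized reads in C57BL/6J control and 0.0317 in C57BL/6J DEHP, and Mir17hg 0.970 and 0.312. The distance between control and DEHP hardly moved in FVB/N, at 17.6 to 19.7 normalized reads over the 5 probes, and was 19.8 to 26.3 in C57BL/6J. The ratio was therefore lowest for Mir17, where DEHP left the fewest reads, and nearest to 0 for Mir17hg. Since neighbouring probes share 91.8% to 93.3% of their bases, these steps are small parts of 1 region. Each was smaller than the larger SD of its pair of probes. Both probes were read in the same libraries, so that SD does not measure the spread of a step, and the steps were not tested.

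**Figure D4:**
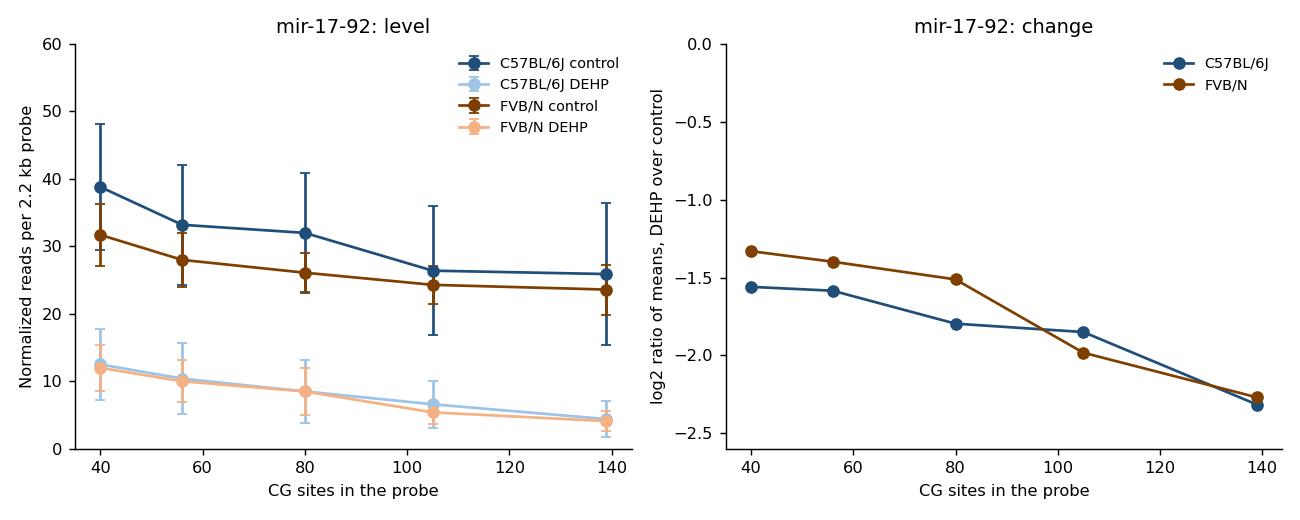
The 5 probes of mir-17-92 by their number of CG sites (horizontal axis, Mir17 at 139 on the right to Mir17hg at 40 on the left). Left, means of normalized reads with the SD of 5 libraries by group; right, log2 ratio of means, DEHP over control, by strain. Levels are highest at the probe with the fewest CG sites in each group, and the ratio is -1.56 and -1.33 at Mir17hg against -2.32 and -2.27 at Mir17.

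The probes of mir-106b-25, with 45 to 48 CG sites each, had no such series. Mir25 and Mir93, which share 90.6% of their bases, differed by at most 2.2 normalized reads in any group. Mir106b, shifted by 208 bp towards the start of Mcm7, was 11.1 normalized reads below Mir93 in C57BL/6J control and 8.7 below it in FVB/N control, and 2.6 and 1.4 below it in the DEHP groups. All these steps were smaller than 1 SD of the libraries, which does not measure the spread of a step between overlapping probes.

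The own promoter of the host did not go with mir-106b-25. The Mcm7 probe (74 CG sites) held 10.2 ± 1.8 normalized reads in C57BL/6J control, 9.2 ± 2.7 in C57BL/6J DEHP, 3.7 ± 3 in FVB/N control and 10.1 ± 6.4 in FVB/N DEHP. Its log2 ratio of DEHP over control was -0.13 (C57BL/6J) and 1.24 (FVB/N), and the libraries were separated in neither strain. The other nearest probes were also low. Cops6, Zfp113 and Ap4m1 beside mir-106b-25 held at most 5 normalized reads in any group. Their log2 ratios were 1.62, 1.08 and 0.96 in FVB/N, and 0.10, 0.26 and 0.66 in C57BL/6J. The FVB/N control means were only 0.2 to 1.6, and 14.4% of all promoters had a log2 ratio above 1 in FVB/N. The nearest probes to mir-17-92 lay further off, Gpc5 at 46 kb, 4930524C18Rik at 210 kb, 4930505G20Rik at 365 kb and Slitrk5 at 3366 kb. Those of mir-106b-25 lay at 2 to 7 kb. Slitrk5, 4930524C18Rik and Gpc5 held at most 3.9 normalized reads, and 4930505G20Rik 5 to 11. None of the 8 neighbours, Mcm7 included, was separated by DEHP in either strain, against 1.67% (C57BL/6J) and 1.63% (FVB/N) of all promoters.

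Host promoter type was compared over all 996 Mir promoters. Of these, 115 held the annotated start of a gene not itself annotated as a microRNA, as the mir-17-92 probes do. For the probe named Mir17hg this is the start of Mir17hg itself. Another 582 lay inside such a gene without its start, as the mir-106b-25 probes do, and 299 lay outside annotated genes. In FVB/N, 6 of the 115 (5.22%) had all DEHP libraries under all control libraries. The mir-17-92 probes were 5 of these 6, and 1 of the other 110 was separated in this direction. Inside genes the share was 7.73%, or 45 promoters with the 3 of mir-106b-25 among them, and outside genes 3.68%. In C57BL/6J the shares were 0.870%, 6.01% and 2.68%, with no member among them. The median log2 ratio of the 115 promoters was -0.49 (C57BL/6J) and 0.03 (FVB/N) against the mir-17-92 medians of -1.80 and -1.51. These 115 had a median level over the 4 groups of 4.53 normalized reads, below that of the mir-17-92 probes (14.5 to 23.8). For the 582 promoters inside genes the medians were -0.78 and -0.05, at a median level of 17.9, against -1.30 and -1.32 for mir-106b-25 at levels of 39.6 to 45.5.

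The clusters stood differently against promoters of like CG number and like level. For each member these were the promoters with a CG number close to its own (112 to 170 for Mir17, 37 to 57 for Mir25) and a mean over the 4 groups within 1.5 times of it, without probes that overlap a member. Mir17 had 69 such promoters, and 0 of them had a lower log2 ratio than Mir17 in either strain. These had medians of -1.07 (C57BL/6J) and -0.39 (FVB/N). For Mir18, Mir19a, Mir20a and Mir17hg, between 1.6% and 10.4% of like promoters were lower in C57BL/6J, and between 0% and 3.0% in FVB/N. For mir-106b-25 the strains gave different pictures. In FVB/N, 5.86% of 290 promoters like Mir25 were lower than it, 6.85% of 248 for Mir93 and 8.68% of 380 for Mir106b. In C57BL/6J, 50.3%, 69.8% and 69.7% were lower, so Mir25 lay at the middle of its like promoters (median -1.43) and Mir93 and Mir106b above it. A 2-fold reduction was reached by 87.2% of the promoters like Mir25 in C57BL/6J and by 27.9% in FVB/N. The level used for the choice includes the groups compared, and these shares are a description.

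**Figure D5:**
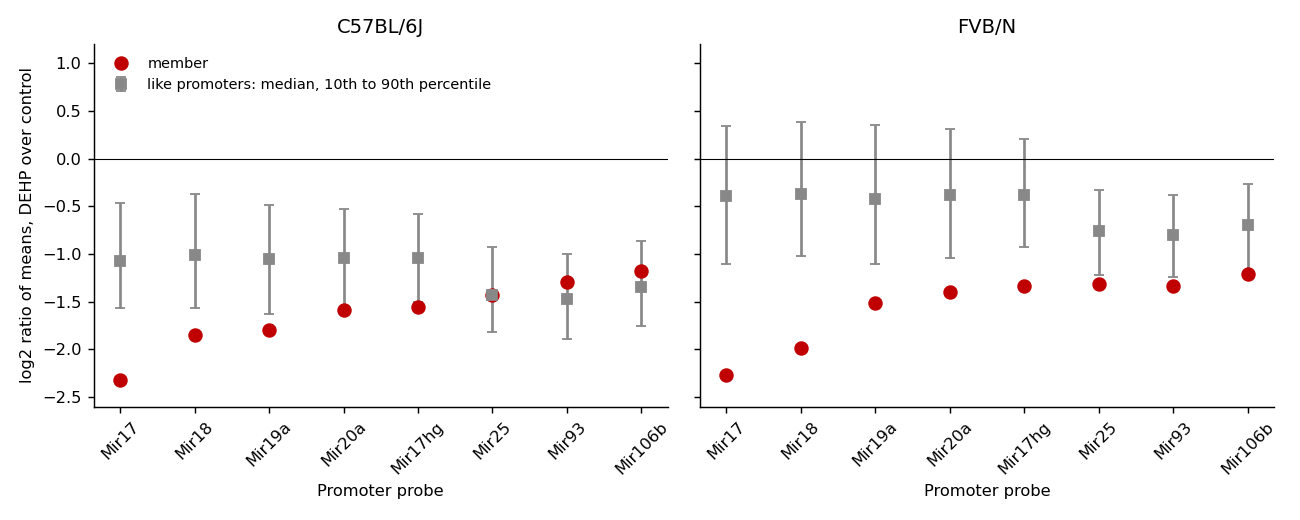
Log2 ratio of means, DEHP over control (vertical axis), for each member (red) and for promoters of like CG number and level (grey squares, median; bars, 10th to 90th percentile), in C57BL/6J (left) and FVB/N (right). In FVB/N every member lies below the median of its like promoters, by the most at Mir17 (-2.27 against -0.39), whereas in C57BL/6J the mir-106b-25 members lie at or above it.

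Related genes were followed through fixed lists, where a probe counts as changed when its libraries were separated. With 1.67% (C57BL/6J) and 1.63% (FVB/N) of all promoters separated by DEHP, counts of 0 in lists this short are near the background. The mir-106a-363 cluster on chromosome X, a paralog of both clusters, had 5 probes measured, all overlapping in 1 region, and 0 were separated by DEHP in either strain. Their median log2 ratio was -0.72 (C57BL/6J) and 0.23 (FVB/N). The probes with the largest ratios were Mir18b at -0.89 and 0.33 and Mir20b at -0.80 and 0.27, and the level there was low, at 3 to 6.4 normalized reads for Mir18b. Of 9 MCM genes, the family of Mcm7, 0 were separated by DEHP (medians -0.32 and 0.11), and Mcm9 had the largest ratio beside Mcm7, 1.21 in C57BL/6J and 0.91 in FVB/N at means of 1.2 to 4.1. Of 10 genes of the Myc and E2F families, 0 were separated by DEHP (medians -0.21 and 0.45). Some members of these families are known to drive transcription of the clusters, but Myc itself was not among the 10. E2f4 had the lowest ratio, -1.15 in C57BL/6J, where the mean was 24.8 ± 12.3 in control and 10.6 ± 2.2 after DEHP, against 0.26 in FVB/N, and E2f5 had 0.07 and 1.10. E2f6 was separated between the strains after DEHP, at 7.8 ± 0.9 in C57BL/6J and 3.3 ± 1.3 in FVB/N (log2 ratio 1.03). After DEHP, 0.307% of all promoters were separated with C57BL/6J above FVB/N. Of 8 promoters of genes known as targets of the miR-17, miR-19 and miR-25 families, 0 were separated (medians -0.21 and 0.12). Socs3, a brake on cytokine signalling, had -1.23 (C57BL/6J) and -0.13 (FVB/N). Of 7 genes of microRNA biogenesis, 0 were separated (medians 0.28 and 0.66). Ago2, the Argonaute that can cut its targets, had -0.95 and -0.34 at means of only 0.5 to 1.9. Ago3 had 0.78 and 0.89 at means of 1.5 to 4.2.

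The promoters whose 4 group means were most like those of each cluster were found by Euclidean distance in log2(mean + 1) to the median of the cluster. For mir-17-92 these were Nme5 (0.244), Mir130a (0.246) and Cpsf4 (0.287). Nme5 and Cpsf4 had DEHP libraries separated below control only in FVB/N, like the probes of the cluster itself. Mir130a held 31.6 ± 6.2 normalized reads in C57BL/6J control, 7.6 ± 2.6 in C57BL/6J DEHP, 28.4 ± 3 in FVB/N control and 7.5 ± 1.1 in FVB/N DEHP, and was separated in both strains. For mir-106b-25 they were Cyba (0.187), Mir7036 (0.204) and Mir6923 (0.263), each separated in FVB/N and not in C57BL/6J, as the members were. The likeness rests on 4 means. These promoters were chosen by those means, so their like ratios, and in large part their like separation, follow from the choice.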

How the data were processed

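Sperm DNA of 20 libraries was captured with MethylCap and sequenced. The authors aligned read-pairs to mm10 with Bowtie 0.12.7, removed pairs with several positions, discordant pairs and pairs without CpG, counted pairs per promoter probe and normalized with edgeR. The deposited signal values are group means of normalized reads, each with its SD; the numbers of CG sites and of variants are the authors' annotation. Another 9 columns with fold changes and p-values of the authors and 6 columns of expression from another dataset were not used.

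Computed from the means and SDs were log2 ratios with a pseudocount of 1 and the separation of libraries (largest distance 1.79 SD, rounding step 0.05). The SD was read as a sample SD, since it reached 2.3 times the mean. The rule was tested on simulated data. Sequences came from GRCm38.p6, where 93.2% of probes had the deposited number of CG sites, genes from GENCODE and microRNAs from RefSeq. Named promoters are the members, the host, the nearest 2 probes on each side of each cluster, the 3 most alike per cluster and, per list, separated probes or else examples with the largest ratios. A result that this rule would name is not reported here. The members and lists were chosen with earlier results of these data known. Alternatives were a pseudocount of 0.1, scaling to equal sums or medians, a level of at least 1 normalized read, and removal of the lowess trend (fraction 0.3) on CG sites. Python 3.11.15, numpy 2.4.6, pandas 2.3.3, statsmodels 0.14.6 and matplotlib 3.10.9 were used.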

Additional observations from a re-analysis of the deposited data

How the results depend on the processing

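All 40 log2 ratios of the members over 5 settings stayed below 0 in each strain, from -2.53 to -0.63 in C57BL/6J and from -2.94 to -1.21 in FVB/N, and all 8 members remained separated in FVB/N under both scalings. With means scaled to equal medians, the FVB/N medians were -2.19 (mir-17-92) and -2.01 (mir-106b-25), 1 member (Mir17hg) was separated in C57BL/6J, and 3.25% of all promoters lay below control in FVB/N. With means scaled to equal sums, 0.129% of promoters lay below control in C57BL/6J. With at least 4 of 5 control libraries above every DEHP library, 6 members were counted in C57BL/6J in place of 0. The strain ratio in controls went from above 0 to -0.42, -0.48 and -0.27 (mir-17-92) and -0.62, -0.68 and -0.47 (mir-106b-25) with equal sums, equal medians and without the trend on CG sites; equal medians move the ratio of all promoters from 0.35 to -0.18 in FVB/N and from 0.54 to -0.04 between control strains. No paired analysis was possible because the table used here holds group means, and for the same reason leaving out each replicate in turn was not run. Depth per library is not in that table, and treatment cannot be told apart from submission and from the longer reads and higher average depth of the DEHP libraries.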
